A study of Homo sapiens with 12 samples.

Results

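Levels of 10 genes of the endoplasmic reticulum (ER) stress response were measured in NCI-H295R cells given VEH, CJ28 or MET: HSPA5, HSP90B1, XBP1, ERN1, DNAJB9, DNAJC3, SDF2L1, HERPUD1, PDIA4 and CALR. They were chosen by name as genes of the ATF6 and XBP1 branches, with earlier results of these data known. All 10 were found once each by symbol among the 60662 genes of the deposited table and passed the filter on low values. NCI-H295R is a human adrenocortical carcinoma line that secretes cortisol, so every sample comes from one tumour line in culture. Confluent cells in serum-free medium were exposed for 24 h to the vehicle (VEH, 0.1% DMSO), to 30 µM CJ28, a benzimidazolylurea inhibitor of cortisol biosynthesis, or to 30 µM metyrapone (MET), an inhibitor of 11β-hydroxylase. Each group held 4 samples, given as biological replicates. The question addressed here is whether genes of the ATF6 and XBP1 branches changed in cells in which ATF4-linked genes did.

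Secreted and membrane proteins fold in the ER, where chaperones and enzymes that form disulfide bonds assist them. When unfolded proteins accumulate, 3 membrane sensors, IRE1 (encoded by ERN1), ATF6 and PERK (encoded by EIF2AK3), start the unfolded protein response. IRE1 splices XBP1 mRNA so that it encodes an active transcription factor, ATF6 is cut in the Golgi to release another, and PERK phosphorylates eIF2α, which favours translation of ATF4. XBP1 and ATF6 raise transcription of chaperones and of ER-associated degradation (ERAD), the route that returns misfolded proteins to the cytosol for destruction. ATF4 can also be induced without ER stress, through the other kinases that phosphorylate eIF2α.

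The promoters of the 10 genes are shown first, because ATF6 and XBP1 are known to act through short elements near the transcript start. The RefSeq windows (build GRCh38.p14) run from 250 bases before to 50 bases after each start, and all 10 genes had an entry. On both strands, these windows were searched for exact matches to the ER stress response element (ERSE: CCAAT, then 9 bases of any kind, then CCACG), to ERSE-II (ATTGG, then 1 base of any kind, then CCACG), to the unfolded protein response element (UPRE, TGACGTGG or TGACGTGA) and to the core of the C/EBP-ATF response element of ATF4 (CARE, TGATGNAA). The stretches holding a match are printed 5′ to 3′ on the strand of the gene, with the matches in capitals:
HSPA5 (chr9:125241379-125241421, minus strand): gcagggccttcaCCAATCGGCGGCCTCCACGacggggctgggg
HSP90B1 (chr12:103930204-103930351, plus strand): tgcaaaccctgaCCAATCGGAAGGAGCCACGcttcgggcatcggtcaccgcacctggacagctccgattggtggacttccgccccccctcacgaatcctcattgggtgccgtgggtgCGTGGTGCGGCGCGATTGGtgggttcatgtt
XBP1 (chr22:28800591-28800633, minus strand): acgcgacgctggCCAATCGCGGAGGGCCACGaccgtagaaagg
CALR (chr19:12938372-12938414, plus strand): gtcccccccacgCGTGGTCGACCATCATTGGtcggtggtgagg
SDF2L1 (chr22:21642102-21642136, plus strand): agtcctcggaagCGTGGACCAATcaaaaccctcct
HERPUD1 (chr16:56931954-56932047, plus strand): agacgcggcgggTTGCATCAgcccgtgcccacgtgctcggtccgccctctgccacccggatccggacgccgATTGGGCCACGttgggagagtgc

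Genes and motifs were both chosen from what is known of these branches, so the matches describe the promoters and test no enrichment. An ERSE was matched in 4 of the 10 genes, once each in HSPA5, XBP1 and CALR, and 2 times in HSP90B1. Across all 35116 windows of the same length, 0.0769% held one, as did 0.151% of the 10567 tested genes with an entry. ERSE-II was matched in SDF2L1 and HERPUD1, against 0.0541% of all windows and 0.123% of those tested genes. HERPUD1, alone of the 10, also held a CARE, which 3.62% of all windows and 2.75% of those tested genes did. None of the 10 held a UPRE (1.18% of all windows and 2.0% of those tested genes). The capitals in CALR, in SDF2L1, in the CARE of HERPUD1 and in the second ERSE of HSP90B1 read as the reverse complement. There the match lies on the opposite strand, and no matches overlapped. The windows of ERN1, DNAJB9, DNAJC3 and PDIA4 held none of these letters, which says nothing about whether the factors bind elsewhere. In HSP90B1 the deposited gene begins 303 bases before the RefSeq start, so the printed stretch lies inside that longer gene model. In ERN1 it begins 675 bases before, so the window searched does not cover the deposited start. In PDIA4 it begins 172 bases before the first RefSeq start. XBP1 and PDIA4 each had a second, downstream window without a match.

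**Figure D1:**
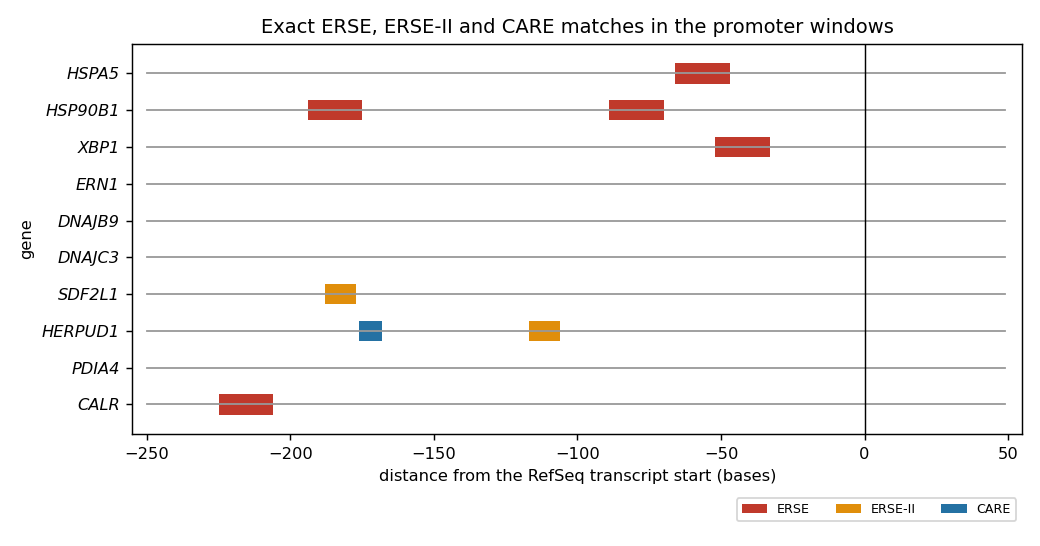
Exact matches to ERSE (red), ERSE-II (orange) and CARE (blue) in the first promoter window of each of the 10 genes, plotted by distance in bases from the RefSeq transcript start at 0. Matches lie in 6 of the 10 genes and all lie before the start.

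The deposited TPM values scale each gene by transcript length and by the library total, so levels can be compared between genes, but one gene's value also depends on how much of the library the rest takes. Nuclear protein-coding genes held 24.3% to 24.8% of TPM in VEH, 24.1% to 24.6% in MET and 21.3% to 21.4% in CJ28. Genes were tested with limma on log2(TPM + 0.1), which understates changes of low genes, over the 16815 genes with at least 0.5 TPM in at least 4 of the 12 samples. The median log2 fold change of these genes from VEH to CJ28 was -0.13, and it was 0.014 after TPM was divided by a median-of-ratios factor per sample. Adrenocortical identity was checked with 8 markers (NR5A1, STAR, CYP11A1, CYP17A1, CYP21A2, INHA, MC2R and HSD3B2), whose summed level ranged from 272 to 283 TPM in the VEH samples, from 271 to 285 in the MET samples and from 109 to 117 in the CJ28 samples. All 8 were lower in CJ28 than in VEH in limma (adjusted p under 0.05), as were 37.1% of all tested genes. Of the 8, INHA, MC2R and HSD3B2 were low already in VEH, with means of 1.67, 1.045 and 0.863 TPM. HSD3B2 passed the filter on low values through its VEH and MET samples alone (0.13 to 0.23 TPM in CJ28). The part of this marker shift in the results below was not tested. The 14 markers of medulla, fibroblasts, endothelium and leukocytes had group means of at most 0.863 TPM. In such bulk RNA, fewer cells of a kind and less RNA per cell cannot be told apart.

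All 10 genes differed between CJ28-treated and VEH-treated cells by limma (adjusted p under 0.05), as did 57.0% of all tested genes. Of the 10, 9 were higher, against 19.9% of all tested genes, and 1, ERN1, was lower, against 37.1%. These background shares depended on the scaling: with median-of-ratios scaling 29.3% of all tested genes were higher and 26.3% lower, and with TPM over nuclear protein-coding genes alone 39.3% of the 12506 then tested were higher and 26.3% lower, while 9 of the 10 members were higher and 0 lower under both. The ranges of the 4 CJ28 and 4 VEH samples were apart for all 10, and for 50.3% of all tested genes. For the 9 higher genes every CJ28 sample lay above every VEH sample, as it did for 17.7% of all tested genes. The median log2 fold change of the 10 was 0.56, beside -0.13 for all tested genes.

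HSPA5 encodes BiP, the Hsp70 chaperone of the ER that also holds the sensors inactive (ENSG00000044574.8, chromosome 9, 125234853 to 125241343 on GRCh38). In VEH-1 to VEH-4 it had 26.9, 35.3, 32.4 and 45.7 TPM, and in CJ28-1 to CJ28-4 it had 77.7, 74.6, 56.7 and 95.4 TPM. The groups were separate, with CJ28-3 lowest and CJ28-4 highest among treated samples and VEH-4 highest among the controls. The log2 fold change was 1.12 (standard error 0.16, limma adjusted p = 6.42e-05), a 2.17-fold rise. With each library left out in turn, it lay between 1.00 and 1.25. HSPA5 varied more between replicates of VEH and of CJ28 than the other 9 genes did. This did not hold in MET, where the SD was 5.1% of the mean for HSPA5 and 7.99% for SDF2L1. Pooled over groups, the SD of HSPA5 was 0.26 on the log2 scale. This was reached by 2.7% of the 5226 genes with a mean of at least 10 TPM, whose median was 0.078. The next largest among the 10 was 0.097 for SDF2L1.

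HSP90B1 encodes GRP94, the Hsp90 of the ER lumen (ENSG00000166598.15, chromosome 12, 103930107 to 103953645). It had 146, 157, 149.7 and 158 TPM in VEH and 238, 229, 232 and 224 TPM in CJ28, in replicate order. The gap between groups was several times the range inside either one. The log2 fold change was 0.60 (standard error 0.031, limma adjusted p = 7.34e-09). HSP90B1 and CALR had the highest levels of the 10 genes in VEH and in MET, where their ranges overlapped, whereas in CJ28 every value of HSP90B1 exceeded every value of CALR.

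The cochaperones of BiP rose as well. DNAJB9 encodes ERdj4, a J-domain protein that recruits BiP to IRE1 (ENSG00000128590.5, chromosome 7, 108569867 to 108574850). It was the least abundant of the 10 genes in VEH, with 10.6, 10.2, 9.43 and 9.63 TPM, and had 20.4, 22.0, 19.8 and 20.2 TPM in CJ28. The lowest treated sample was far above the highest control, and the log2 fold change was 1.04 (standard error 0.050, limma adjusted p = 3.02e-09), a 2.06-fold rise. DNAJC3 encodes p58IPK, a cochaperone that also inhibits eIF2α kinases (ENSG00000102580.15, chromosome 13, 95677139 to 95794988). It had 19.3, 21.2, 20.1 and 20.7 TPM in VEH and 25.1, 25.8, 25.3 and 25.4 TPM in CJ28. The treated samples lay within a narrow band above all controls, 0.32 higher on the log2 scale (standard error 0.035, limma adjusted p = 5.43e-06), a 1.25-fold rise. SDF2L1 encodes a lumenal partner of the J-domain cochaperones (ENSG00000128228.5, chromosome 22, 21642302 to 21644299). It had 15.2, 15.1, 13.9 and 13.9 TPM in VEH and 20.2, 21.3, 19.8 and 23.0 TPM in CJ28, again without overlap. The log2 fold change was 0.53 (standard error 0.066, limma adjusted p = 1.87e-05).

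CALR encodes calreticulin, a chaperone that binds sugar chains and calcium (ENSG00000179218.13, chromosome 19, 12938578 to 12944489). It had 153, 149.8, 156 and 153 TPM in VEH and 188, 189.6, 194 and 187 TPM in CJ28. The groups were apart, and the log2 fold change of 0.31 (standard error 0.024, limma adjusted p = 2.7e-07) was the smallest among the 9 genes that rose, a 1.24-fold rise. PDIA4 encodes ERp72, a protein disulfide isomerase (ENSG00000155660.11, chromosome 7, 149003062 to 149028662). Its values were 50.6, 49.6, 50.7 and 53.0 TPM in VEH against 71.9, 71.7, 68.9 and 73.8 TPM in CJ28. The distance between the groups exceeded their ranges, and the log2 fold change was 0.49 (standard error 0.030, limma adjusted p = 3.08e-08).

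HERPUD1 encodes HERP, a membrane component of the ERAD machinery (ENSG00000051108.15, chromosome 16, 56932142 to 56944864), and its promoter was the one with both an ERSE-II and a CARE. It had 59.4, 66.4, 62.5 and 59.9 TPM in VEH and 104.8, 103.6, 107.6 and 119 TPM in CJ28. CJ28-4 was the highest treated sample, as it was for HSPA5, SDF2L1, PDIA4 and ERN1. The log2 fold change was 0.81 (standard error 0.048, limma adjusted p = 2.13e-08), a 1.75-fold rise.

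XBP1 encodes the transcription factor whose mRNA is spliced by IRE1 (ENSG00000100219.16, chromosome 22, 28794555 to 28800597). It had 16.9, 17.7, 19.1 and 17.4 TPM in VEH and 72.7, 76.6, 76.4 and 75.4 TPM in CJ28. This was the largest change of the 10, a 4.22-fold rise or 2.08 on the log2 scale (standard error 0.043, limma adjusted p = 2.15e-12), and it ranked 48 from the top among the 16815 tested genes. Values per gene add spliced and unspliced XBP1 mRNA, so the splicing itself was not measured here.

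ERN1 encodes the sensor and nuclease IRE1 (ENSG00000178607.16, chromosome 17, 64039142 to 64130819). It had 27.9, 30.1, 27.4 and 28.9 TPM in VEH and 24.2, 26.4, 25.5 and 27.1 TPM in CJ28. All treated values were below all controls, as for 32.7% of tested genes, and the log2 fold change was -0.15 (standard error 0.053, limma adjusted p = 0.03). This is a change of -0.014 relative to the median of all tested genes. With median-of-ratios scaling it was 0.0048 (limma adjusted p = 0.944), and 0.057 (limma adjusted p = 0.32) with TPM taken over nuclear protein-coding genes alone. The call was lost without VEH-2, VEH-4, CJ28-1 or CJ28-3 (limma adjusted p = 0.0859, 0.0638, 0.0906 and 0.0613, with log2 fold changes of -0.12, -0.14, -0.12 and -0.14). The other 9 genes kept their call and direction under both scalings and with each library left out.

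**Figure D2:**
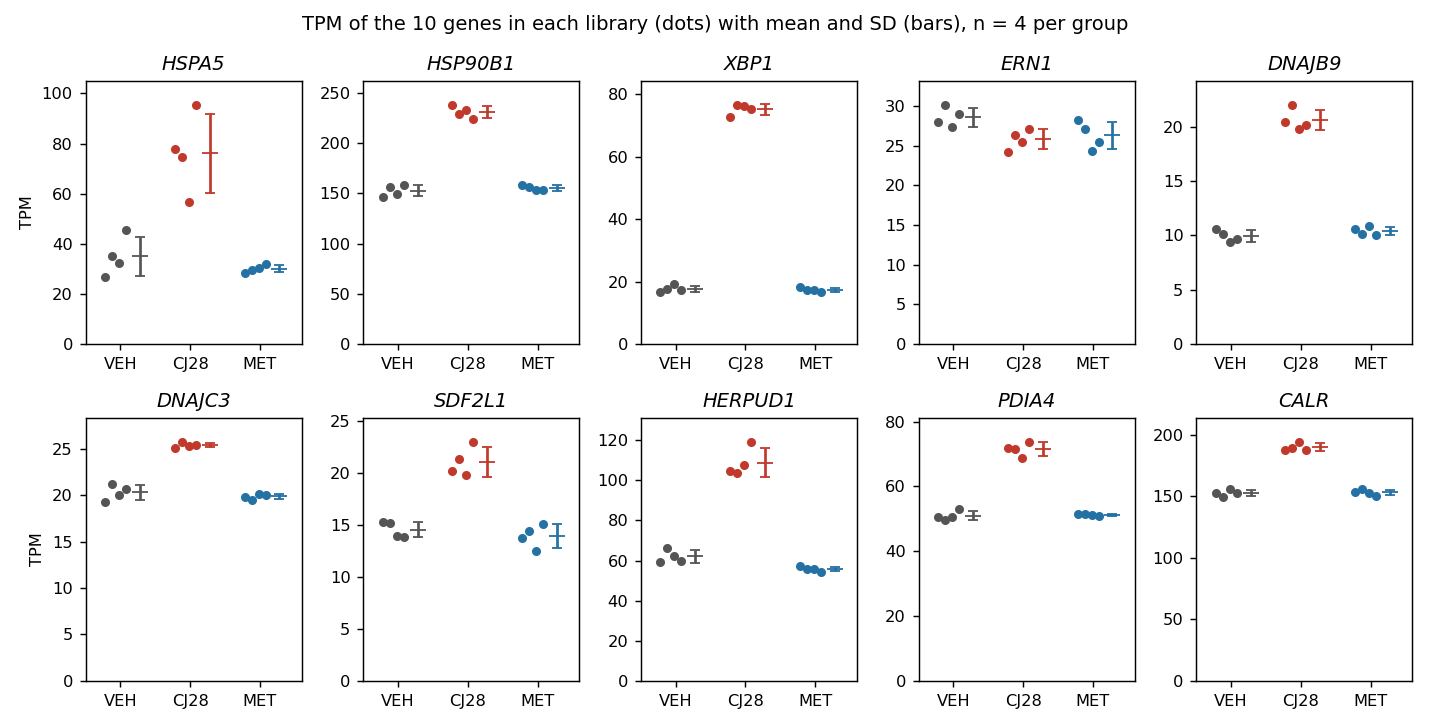
TPM of each of the 10 genes in each library (dots, replicates in order from left to right) with the mean and SD of the 4 samples of a group (bars); each panel has its own axis from 0. In 9 panels the CJ28 dots lie above all VEH and MET dots, XBP1 by the widest ratio. HSPA5 shows the widest spread inside VEH and inside CJ28.

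The order of the 10 levels changed accordingly. In VEH, XBP1 ranked 8 of 10 with a mean of 17.8 ± 0.975 TPM (SD, n = 4), below ERN1 and DNAJC3 without overlap. In CJ28 it ranked 5 with 75.3 ± 1.80 TPM (SD, n = 4), and its range overlapped those of its neighbours, HSPA5 (76.1 ± 15.8) and PDIA4 (71.6 ± 2.04). ERN1 and DNAJC3, separate in VEH, overlapped in CJ28 (25.8 ± 1.23 and 25.4 ± 0.264 TPM), and so did SDF2L1 and DNAJB9 (21.1 ± 1.44 and 20.6 ± 0.957 TPM). The rises of the 9 genes thus spanned from 1.24-fold to 4.22-fold, with the largest at XBP1, HSPA5 and DNAJB9 and the smallest at DNAJC3 and CALR. The 95% interval of the log2 fold change of XBP1 (1.98 to 2.17) lay above that of every other member, while the interval of HSPA5 (0.77 to 1.47) overlapped those of DNAJB9 (0.93 to 1.15) and HERPUD1 (0.70 to 0.91).

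Under MET none of the 10 genes differed from VEH at an adjusted p under 0.05 in limma, where 1 of the 16815 tested genes did (0.00595%) and 874 had an unadjusted p under 0.05, 2 of them (HERPUD1 and ERN1) among the 10. None was higher, as for 0.0% of all tested genes. Their log2 fold changes ran from -0.19 (HSPA5) to 0.062 (DNAJB9), with a median of -0.030 beside -0.026 for all tested genes. XBP1 had 18.2, 17.3, 17.5 and 16.7 TPM in MET, overlapping the controls, with a log2 fold change of -0.028 (95% interval -0.12 to 0.065). For CALR the interval was -0.049 to 0.056 and for PDIA4 -0.059 to 0.071, so rises of the size seen in CJ28 lay outside them. HSPA5 had 28.4, 29.7, 30.4 and 32.1 TPM in MET, and its interval was wider, -0.54 to 0.15. The MET samples ranged from 153 to 159 TPM for HSP90B1, from 10.1 to 10.8 for DNAJB9, from 19.5 to 20.2 for DNAJC3 and from 12.5 to 15.1 for SDF2L1, and each range overlapped that of VEH.

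HERPUD1 was the one gene of the 10 whose MET samples, at 57.2, 55.9, 55.6 and 54.4 TPM, all lay below the VEH samples. Ranges were apart in that direction for 2.03% of all tested genes, in the higher direction for 0.779% (0 of the 10) and in either for 2.81%. The log2 fold change was -0.15 (95% interval -0.26 to -0.048, limma unadjusted p = 0.00772, adjusted p = 0.933), and the two-sided exact permutation test gave p = 0.0286, the smallest possible with 4 against 4 samples. ERN1 had an unadjusted limma p of 0.0397 (log2 fold change -0.12, adjusted p = 0.933), and its ranges overlapped.

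**Figure D3:**
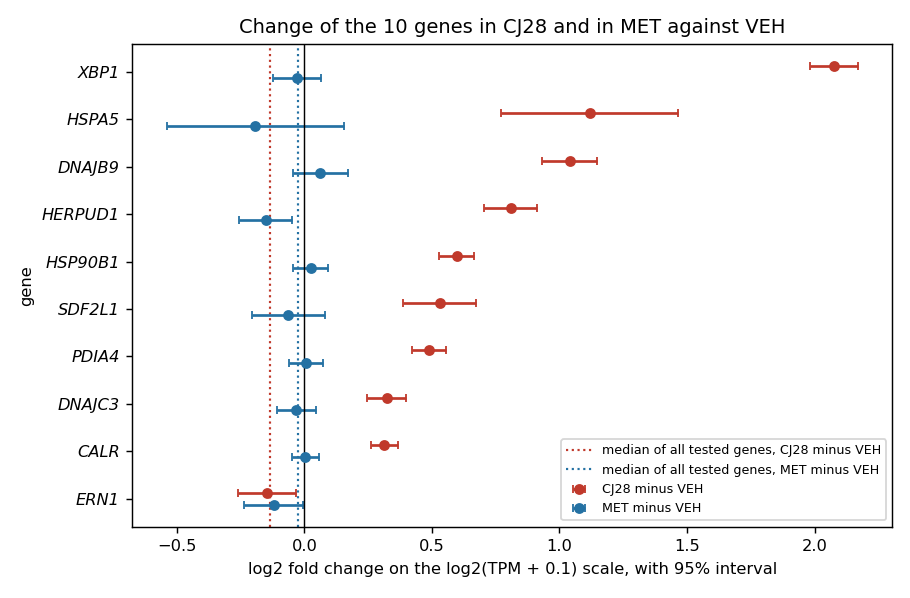
Log2 fold change of each gene on the log2(TPM + 0.1) scale in CJ28 (red) and in MET (blue) against VEH, with 95% intervals from limma, 4 samples per group; dotted lines give the median of all tested genes, -0.13 for CJ28 and -0.026 for MET. The 9 red points above 0 range from 0.31 (CALR) to 2.08 (XBP1), and no blue point exceeds 0.062.

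At the same dose and time, CJ28 exceeded MET in 9 of the 10 genes by limma (adjusted p under 0.05), with log2 differences from 0.31 (CALR) to 2.11 (XBP1), and was lower in 0. Of all tested genes 20.9% were higher, 34.6% lower and 55.5% either. The same 9 had ranges apart and above MET, as did 18.9% of all tested genes, with 31.3% apart and below and 50.2% apart in either direction. This comparison and the one with VEH share the CJ28 samples. For HERPUD1 the difference from MET was 0.96 (standard error 0.048), beside 0.81 from VEH. ERN1 did not pass (log2 difference -0.026, 95% interval -0.14 to 0.088, limma adjusted p = 0.695), with 28.3, 27.1, 24.3 and 25.5 TPM in MET, and the sign of this difference turned under both other scalings.

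Around these 10 genes, 9 lists of ER and unfolded protein response genes were examined, which held 106 other genes. Of these, 105 were in the table (ERN2 was not analysed here) and 102 were tested. In CJ28 against VEH, 51 were higher, 24 lower and 27 did not pass at an adjusted p under 0.05 in limma, with a median log2 fold change of 0.14. After median-of-ratios scaling, 61 were higher and 13 lower, beside 4925 and 4430 of all tested genes (3346 and 6231 before scaling). As shares of all tested genes, this is 19.9% higher and 37.1% lower, or 29.3% and 26.3% after this scaling. The counts of each list below stand beside these shares. In MET, 0 of the 102 passed in limma, and 6 had an unadjusted limma p under 0.05, beside 1 and 874 of all 16815 tested genes.

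The remaining chaperones and cochaperones moved with the members: 8 of 9 were higher and 1 lower. HYOU1, which encodes a large Hsp70-like partner of BiP, rose from 34.1 ± 0.465 to 73.8 ± 1.03 TPM (SD, n = 4), and MANF, a secreted factor retained by BiP, from 48.9 ± 2.59 to 95.1 ± 1.88 TPM. SEC63, a J-domain protein of the translocon, had 12.8 ± 1.118 TPM in VEH and 14.4 ± 0.364 in CJ28, with overlapping ranges and a limma adjusted p of 0.0439 that held in few of the fits that left out a library. SDF2, the paralogue of SDF2L1, went the other way, from 16.1 ± 0.381 to 9.61 ± 0.578 TPM, which is -0.74 on the log2 scale (standard error 0.046, limma adjusted p = 3.14e-08).

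Of 8 other tested genes on sensors and their processing, 4 were higher and 0 lower, or 6 and 0 after median-of-ratios scaling. ATF6 rose from 8.47 ± 0.319 to 11.9 ± 0.706 TPM and EIF2AK3 from 7.68 ± 0.842 to 11.3 ± 1.25 TPM (SD, n = 4). The related membrane-bound factors CREB3 and CREB3L2 rose by 0.43 and 0.41 on the log2 scale, and CREB3L2 had one low treated sample, CJ28-3. MBTPS1, the protease that first cuts ATF6, and RTCB, the ligase that joins XBP1 exons, did not pass (log2 fold changes -0.14 and 0.015).

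Folding enzymes were divided. Among 6 lectin chaperones and glucosidases besides CALR, 3 were higher and 0 lower, or 4 and 0 after the same scaling. Calnexin, the membrane counterpart of calreticulin (CANX), rose from 220 ± 7.07 to 286 ± 7.63 TPM (SD, n = 4), and UGGT2 and MOGS rose by 0.69 and 0.54 on the log2 scale. Of 13 genes for disulfide formation besides PDIA4, 5 were higher, 5 lower and 3 did not pass, or 5, 2 and 6 after median-of-ratios scaling. Before scaling, the share lower (38.5%) was near that of all tested genes (37.1%), and the share higher (38.5%) was above it (19.9%). ERP44 rose from 14.2 ± 0.356 to 19.3 ± 0.293 TPM and the oxidase gene ERO1B from 4.97 ± 0.578 to 6.69 ± 0.445 TPM. TMX1 and TXNDC5, both encoding thioredoxin-like proteins of the ER, fell by 0.35 and 0.31 on the log2 scale. P4HB, the classical disulfide isomerase, had 143 ± 5.35 TPM in VEH and 137 ± 6.78 in CJ28 (limma adjusted p = 0.203).

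For ERAD, 8 of 19 genes besides HERPUD1 were higher and 7 lower, or 10 and 3 after median-of-ratios scaling. Before scaling, the share lower (36.8%) was near that of all tested genes (37.1%), and the share higher (42.1%) was above it (19.9%). SEL1L, the scaffold of the HRD1 ubiquitin ligase, rose from 22.7 ± 1.54 to 40.5 ± 2.23 TPM, and EDEM1, which helps to mark glycoproteins for disposal, from 5.11 ± 0.614 to 9.40 ± 0.746 TPM (SD, n = 4). SYVN1, the gene of HRD1 itself, had 7.04 ± 0.748 and 7.12 ± 1.04 TPM. VCP, the ATPase that extracts ERAD substrates from the membrane and serves many other processes, fell from 168 ± 5.43 to 94.3 ± 0.946 TPM, and EDEM3 fell by 0.32 on the log2 scale, a call that was lost with TPM over nuclear protein-coding genes (log2 fold change -0.11, limma adjusted p = 0.0895).

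Translocation genes were split as well, with 7 of 15 higher and 4 lower, or 9 and 4 after the same scaling. Before scaling, 46.7% were higher and 26.7% lower, beside 19.9% and 37.1% of all tested genes. SEC11C, a catalytic subunit of signal peptidase, rose from 33.6 ± 0.885 to 52.1 ± 3.16 TPM, while its paralogue SEC11A fell from 52.7 ± 1.14 to 40.4 ± 1.69 TPM (SD, n = 4). SSR3 of the translocon-associated complex rose by 0.59 and SEC62 fell by 0.35 on the log2 scale. Of 16 genes for transport from ER to Golgi, 5 were higher (31.2%) and 3 lower (18.8%), or 8 and 0 after median-of-ratios scaling. The COPII coat genes SEC24D and SEC23B rose from 4.65 ± 0.718 to 12.2 ± 0.329 TPM and from 13.6 ± 1.19 to 23.7 ± 1.58 TPM. KDELR1, a receptor that returns chaperones to the ER, had 49.02 ± 5.31 TPM in VEH and 41.1 ± 6.47 in CJ28, and SAR1B had 20.7 ± 1.495 and 18.5 ± 0.698, with overlapping ranges, and neither call held after scaling.

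The PERK and ATF4 arm had the highest median of the 9 lists, with 11 of 11 genes higher and a median log2 fold change of 1.98. DDIT3, which encodes CHOP, rose from 16.8 ± 0.317 to 155 ± 8.29 TPM and the pseudokinase gene TRIB3 from 6.81 ± 0.216 to 79.9 ± 2.12 TPM (SD, n = 4). ATF4 mRNA itself rose least, by 0.26 on the log2 scale, and DDIT4 by 1.00. XBP1 alone among the 10 genes reached the median of this arm.

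Transcripts known to be cut by IRE1 in other cells were lower or did not pass. Of 5 tested, 4 were lower in CJ28 and 0 higher, beside 37.1% lower among all tested genes, and 3 remained lower after median-of-ratios scaling. BLOC1S1, a commonly used reporter of this cleavage, fell from 90.8 ± 2.35 to 56.2 ± 2.31 TPM and SCARA3 from 3.30 ± 0.252 to 1.26 ± 0.157 TPM (SD, n = 4). HGSNAT fell by 0.51 on the log2 scale, and SPARC by 0.20, a call that was lost after scaling (log2 fold change -0.052, limma adjusted p = 0.217). Whether these transcripts were cut was not measured here.

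**Figure D4:**
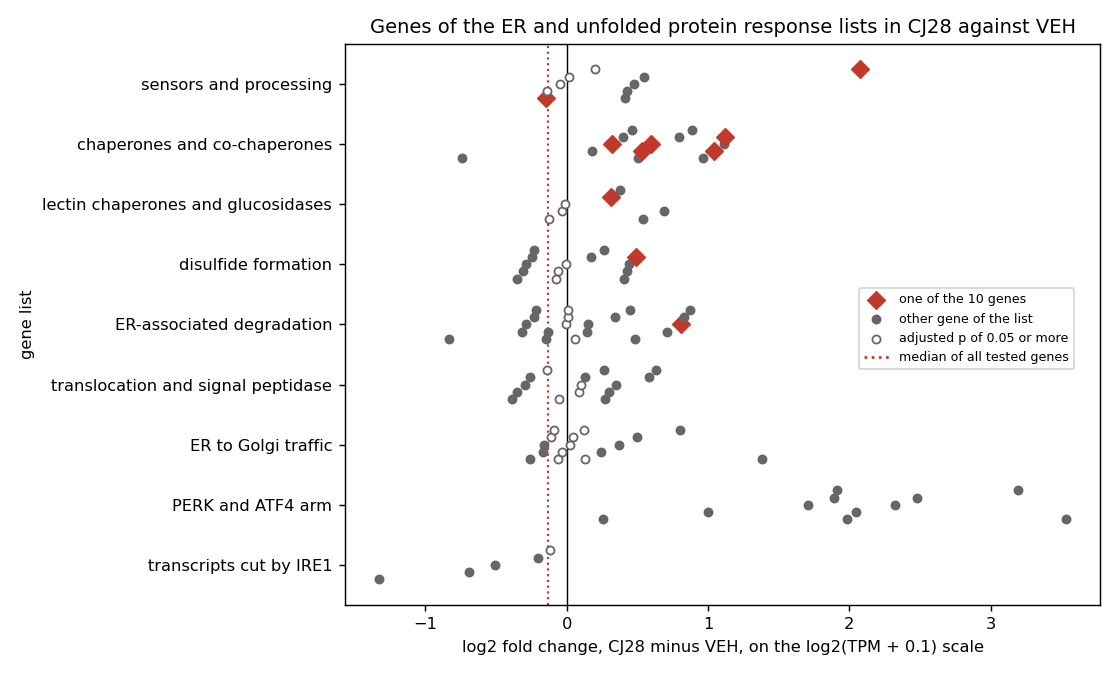
Log2 fold change of CJ28 against VEH for each tested gene of the 9 lists (rows; dots are spread vertically for legibility), with the 10 genes as red diamonds, filled symbols for an adjusted p under 0.05 in limma, and the median of all tested genes (-0.13) as a dotted line. Chaperones lie almost all right of 0, disulfide, ERAD and translocation genes lie on both sides, and the PERK and ATF4 arm reaches 3.53 (TRIB3).

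Genes whose log2(TPM + 0.1) followed a member most closely over the 12 samples were listed by Pearson's r, a description that includes the differences between groups. For SDF2L1 the closest was BHLHA15 (r = 0.988), which encodes the secretory-cell factor MIST1. It had a mean level of 0.228 TPM without drug, 1.62 under CJ28 and 0.188 under MET. BHLHA15 passed the filter on low values through its CJ28 samples alone (1.23 to 2.08 TPM). Its VEH samples (0.13 to 0.32 TPM) and MET samples (0.10 to 0.24 TPM) lay near the added 0.1 TPM. With the group means removed, its r with SDF2L1 was 0.862. It was picked by r over these same samples, so this value is a description too. VPS11 (r = 0.983, and 0.803 with group means removed) and LZTS3 (r = 0.981, and 0.839) came next. They had 8.05 and 1.3 TPM in VEH against 11.6 and 2.46 TPM in CJ28. For HSPA5 the closest were CEACAM19, ITPRIP and METRNL, each with r = 0.982 and group means of 0.887 to 3.33 TPM. With group means removed, their r was 0.877, 0.872 and 0.89.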

How the data were processed

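RNA-seq libraries of NCI-H295R cultures under VEH, CJ28 or MET (4 samples each, grouped by their titles) were examined. Per the submitters' notes, the authors trimmed reads with Cutadapt 2.8, mapped them to GRCh38 with STAR 2.7.10b and obtained gene values with RSEM 1.3.3. The values the authors deposited are TPM with 2 decimals, which keep no read depth, so no counting interval was computed. log2(TPM + 0.1) was fitted with limma 3.58.1 (R 4.3.3; eBayes with a trend) in one fit of 12 samples over the 16815 genes with at least 0.5 TPM in at least 4 samples, with Benjamini-Hochberg adjustment over all of them. This procedure was tested on simulated data. Single genes were compared, too, by two-sided exact permutation tests of mean TPM.

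Members, gene lists and motifs were chosen with earlier results of these data known. Named genes were the 10 members, the 2 highest and 2 lowest passing genes of each list by log2 fold change, and the 3 genes closest to HSPA5 and to SDF2L1 over all samples. P4HB, SYVN1, MBTPS1 and RTCB, and FICD, SERP1, NUCB1, PDIA6 and NAV2 in the closing section, fall outside this rule and were named after their values were seen. Over all tested genes, equal replicate numbers did not pair samples (r of deviations from group means -0.124 to 0.0394). Alternatives were other pseudocounts (1 and 0.01), filters and scalings, 2-group fits, a replicate block, no variance trend and leaving out each sample.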

Additional observations from a re-analysis of the deposited data

Results flagged for a closer look

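In 9 of the 153 groups of 4 samples examined for the named genes, one sample stood far from the other 3, by a gap that chance gives in about 1 of 20 groups. None of the 30 groups of the 10 genes themselves did. Among treated samples, CREB3L2 had 6.88 TPM in CJ28-3 (8.99 to 9.34 in the others), SAR1B had 17.4 TPM in CJ28-3 (18.8 to 18.9), UGGT2 had 28.4 TPM in CJ28-4 (31.6 to 32.0), SEC23B had 21.4 TPM in CJ28-4 (24.3 to 24.7) and SEC24D had 11.7 TPM in CJ28-2 (12.3 to 12.4). SEL1L had 20.4 TPM in VEH-1 (23.4 to 23.7) and BLOC1S1 had 94.4 TPM in VEH-3 (89.4 to 90.03). In MET-3, SAR1B had 19.3 TPM (20.9 to 21.3) and SCARA3 had 3.23 TPM (3.00 to 3.03).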

How the results depend on the processing

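TPM holds no read counts, so the error of a single library is unknown, and with 4 samples a group an exact test cannot fall below p = 0.0286 (0.0571 once a sample is left out). The counts of members called were 10 for CJ28 minus VEH and 0 for MET minus VEH as reported, and 9 and 0 after median-of-ratios scaling, where ERN1 was lost. Over all genes, the count called for MET minus VEH was 1 as reported, 0 with a pseudocount of 1 or of 0.01, 0 with a filter on a mean of at least 1 TPM, 5 with no filter, and 1 to 2 with one sample left out. ERN1 turned to 0.0048 (median-of-ratios) and 0.057 (nuclear protein-coding TPM) on the log2 scale for CJ28 minus VEH, and to 0.095 and 0.16 for CJ28 minus MET, the last with a limma adjusted p of 0.00885. With nuclear protein-coding TPM, SAR1B (0.040) and SPARC (0.00059) turned too, and XBP1 for MET minus VEH was 0.0026 with median-of-ratios scaling. Leaving out one sample gave ranges across 0 for XBP1 (-0.053 to 0.0075), PDIA4 (-0.0066 to 0.025) and CALR (-0.0058 to 0.013) in MET minus VEH and for ERN1 in CJ28 minus MET (-0.062 to 0.0090), none of them called as reported. The cause was not tested, except that both scalings raise CJ28 values relative to VEH by construction.

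Equal replicate numbers marked no shared source in the labels and, over all tested genes, did not deviate together (r from -0.124 to 0.0394). In HSPA5, replicate 4 was the highest of VEH, of CJ28 and of MET (45.7, 95.4 and 32.1 TPM). This gene was singled out after its values were seen, and its lowest sample was replicate 1 in VEH and in MET but replicate 3 in CJ28. Its standard error for CJ28 minus VEH was 0.159 without and 0.117 with a replicate block, whereas that of HSP90B1 was 0.0315 and 0.0351. With a replicate block, 10 members were called for CJ28 minus VEH, 0 for MET minus VEH and 9 for CJ28 minus MET, and 9546 of all genes for CJ28 minus VEH against 9577 without it. SEC63 (adjusted p = 0.0569) was the one named gene whose call was lost under the block.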

Other observations

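Beyond the 10 genes, the promoter search found 12 tested genes with an exact ERSE, of which 6 were higher in CJ28 than in VEH at an adjusted p under 0.05 in limma and 1 lower, and 11 with an ERSE-II, of which 3 were higher and 4 lower. Of these 23 genes, 5 belong to the lists, and the other 18 comprised 5 higher, 5 lower and 8 not called. A UPRE was held by 211 other tested genes, 26.5% of them higher and 37.9% lower, and a CARE by 290, 37.9% of them higher and 29.0% lower. Among all tested genes with a promoter entry 22.8% were higher and 40.6% lower. The genes named next were chosen after their values had been seen. The largest rise among the 23 was that of FICD, which encodes the enzyme that inactivates BiP by attaching AMP, from 3.42 TPM in VEH to 8.24 in CJ28 and 3.24 in MET (log2 fold change CJ28 minus VEH 1.25, standard error 0.064). SERP1, which encodes a small translocon protein induced by ER stress, had 29.3, 36.1 and 28.2 TPM (log2 fold change 0.30, standard error 0.038). NUCB1, a Golgi calcium-binding protein gene with an ERSE-II, had 49.98, 50.6 and 47.98 TPM, and PDIA6, with an ERSE, had 49.5, 47.1 and 48.4 TPM, and neither passed in limma. The strongest fall was that of NAV2, from 0.665 TPM in VEH to 0.0875 in CJ28, with 0.595 in MET. Its log2 fold change for CJ28 minus VEH was -2.02 (standard error 0.246). The CJ28 mean lay below the added 0.1 TPM, and NAV2 passed the filter on low values through its VEH and MET samples, so the size of this fall is uncertain.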
